A study of Homo sapiens with 7 samples.

Results

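The 39 genes described here encode chaperones, folding enzymes, translocation factors and degradation factors of the endoplasmic reticulum (ER), together with sensors and transcription factors of the unfolded protein response. They were taken from a list of symbols, and all 39 were measured, among 17958 genes with a signal. The levels come from 7 microarrays (Affymetrix Human Gene 1.1 ST) hybridised with RNA of SKOV3, an established ovarian cancer cell line that the labels call serous. The cell line label reads SKOV3 for every sample, but the source names count up from SKOV3 to SKOV9 over the samples, a conflict that the labels do not settle. The arrays fall into 3 groups: 3 clones labelled CtBP1 knockdown, 2 clones labelled CtBP2 knockdown and 2 scramble control clones. CtBP1 and CtBP2 are transcriptional corepressors, and the stated purpose was to find genes that the pair regulates differently. All clones, the scramble controls included, were made stable by lentiviral infection and grown in medium with puromycin (2 mg/ml, per the labels). The hairpin sequences are not given in the sources used here. Each array is 1 clone, and nothing in the labels says whether the cells were cultured separately, so each p-value below measures the spread between arrays.

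The ER is the compartment in which secreted and membrane proteins are inserted, folded, glycosylated and joined by disulfide bonds. When unfolded protein accumulates there, the kinases IRE1 (gene ERN1) and PERK (EIF2AK3) and the membrane-bound factor ATF6 are activated. IRE1 then splices the mRNA of XBP1, PERK slows translation, and cleaved ATF6 and spliced XBP1 switch on chaperone and degradation genes. The activating steps are changes in proteins and in splicing, which a gene-level array signal does not measure. In RNA from whole cultures, fewer cells of a kind and less RNA per cell cannot be told apart.

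All values below are log2 signals, which over the 17958 genes ran from 0.80 to 11.89. A difference of 1 is a change by a factor of 2 in array signal, and signals of different genes are not compared with each other. CTBP2 read 4.64 and 4.22 in the CtBP2 knockdown clones, against 5.70 and 6.14 in the scramble clones. CTBP1 read 5.11, 6.13 and 6.13 in the CtBP1-labelled clones, against 5.69 and 6.37 in the scramble clones. These groups overlapped through scramble array 1, at 5.69. All 3 clones lay below scramble array 2 and below both CtBP2 knockdown arrays, which read 6.81 and 6.32. The 2 values of 6.13 were identical. Against both scramble arrays, CTBP1 mRNA therefore did not bear out the label in all 3 clones. They are called CtBP1-labelled below, and every direction given for them is that of the clones so labelled. Scramble array 1 stood apart: its correlations with the other arrays were 0.926 to 0.941, against 0.971 to 0.993 among the other 6. Genes of middle level were low on it. Among 4990 genes with a mean between 4.37 and 6.97, its median difference from scramble array 2 was -0.68. It was extreme in both directions: over all genes it held the highest value for 31.5% and the lowest for 32.4%. Whether dim genes as a set read high on it was not tested. For dim genes, a place below both controls carries that limit. Of the 10 ovarian carcinoma markers, KRT7, KRT8, KRT18, KRT19, ERBB2 and PAX8 read 5.65 or more on every array and EPCAM 4.59 or more. MSLN ran from 3.55 to 5.37, MUC16 from 2.92 to 5.86 and WT1 from 1.92 to 2.21. The 8 fibroblast and endothelial markers stayed at or below 3.32, and the 5 measured leukocyte markers at or below 2.31, except CD68 (5.90 to 7.11).

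Promoters of ER chaperone genes are known for the ER stress response element (ERSE), to which ATF6 binds together with the CCAAT factor NF-Y. It consists of CCAAT, 9 bases of any kind, and CCACG. The related element ERSE-II reads ATTGG, 1 base of any kind, and CCACG. The UPRE core TGACGTGG is a site for XBP1 and ATF6. These letters were searched on both strands from 250 bases before to 50 bases after each annotated start in the RefSeq promoter table (GRCh38.p14), which held 36 of the 39 genes. ERSE was found in 8 of the 36 genes and in 10 of their 44 promoters, or 22.7%, against 0.0769% of all 35116 promoters in the table. Several of the 10 promoters belong to CANX, whose annotated starts share the same site. Counted by gene the share was 22.2%, against 0.13% of the 13864 tested genes that the promoter table held. The 8 genes were XBP1, HSPA5, HSP90B1, CALR, CANX, PDIA6, ERO1B and CRELD2. ERSE-II was found in 6.82% of the genes' promoters, those of HYOU1, SDF2L1 and HERPUD1, against 0.0541% of all promoters. The UPRE core was found in 4.55%, those of HYOU1 and DNAJC10, against 0.729% of all. The motif CCACG alone, which is part of both ER stress elements, was in 72.7% of the genes' promoters and 38.1% of all promoters. A match describes the letters only and is not a measured binding site.

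**Figure D1:**
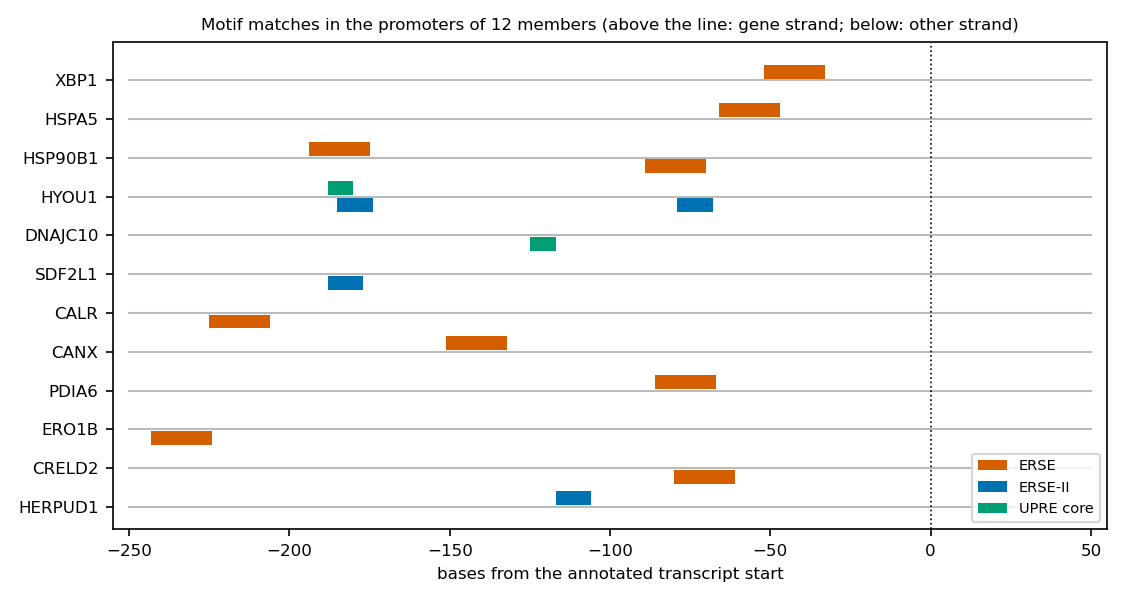
Position of each ERSE, ERSE-II and UPRE core match (coloured boxes) along the promoters of the 12 genes that hold one, in bases from the annotated start (horizontal axis), with boxes above a gene's line on its own strand and below it on the other strand. ERSE boxes of HSPA5 and XBP1 lie from -66 to -48 and from -52 to -34.

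The promoter stretches below are those of genes whose values are described most closely, shown 5′ to 3′ along the gene's strand with the matched letters in capitals. The HSPA5 stretch (chr9:125241377-125241423, minus strand) holds ERSE from base -66 to base -48 relative to the annotated start, and that of XBP1 (chr22:28800589-28800635, minus strand) from base -52 to base -34. HSP90B1 (chr12:103930202-103930353, plus strand) holds ERSE once on each strand. CALR (chr19:12938370-12938416, plus strand) holds it on the other strand, and CANX (chr5:179698773-179698801, plus strand) on the gene's own. HERPUD1 (chr16:56932011-56932049, plus strand) holds ERSE-II. HYOU1 (chr11:119057260-119057407, minus strand) holds ERSE-II in 2 places, and its UPRE core overlaps the first of them. DNAJC10 (chr2:182716118-182716153, plus strand) holds the UPRE core on the other strand.
HSPA5: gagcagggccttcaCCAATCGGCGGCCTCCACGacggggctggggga
XBP1: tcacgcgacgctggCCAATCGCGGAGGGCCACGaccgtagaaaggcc
HSP90B1: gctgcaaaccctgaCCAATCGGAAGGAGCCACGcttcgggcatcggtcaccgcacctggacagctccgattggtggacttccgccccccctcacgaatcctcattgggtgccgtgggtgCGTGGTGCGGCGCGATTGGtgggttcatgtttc
CALR: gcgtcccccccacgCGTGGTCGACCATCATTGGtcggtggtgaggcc
CANX: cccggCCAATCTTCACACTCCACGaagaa
HERPUD1: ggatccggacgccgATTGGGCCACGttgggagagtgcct
HYOU1: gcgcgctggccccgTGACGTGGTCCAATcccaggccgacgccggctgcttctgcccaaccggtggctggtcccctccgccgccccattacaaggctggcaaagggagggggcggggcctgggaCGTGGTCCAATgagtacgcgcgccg
DNAJC10: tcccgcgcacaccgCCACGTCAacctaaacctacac

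The sensors and transcription factors are described first. ERN1, the kinase and nuclease that splices XBP1 mRNA, had signals of 3.56, 3.54 and 3.62 in the CtBP1-labelled clones, 3.64 and 3.62 in the CtBP2 knockdown clones, and 3.95 and 3.44 in the scramble clones. EIF2AK3, the kinase that slows translation under ER stress, had 5.08, 4.52 and 4.66 in the CtBP1-labelled clones, 4.73 and 4.67 in the CtBP2 knockdown clones, and 4.72 and 4.69 in the scramble clones. For both kinases the groups overlapped in every comparison, and the differences lay between -0.12 and 0.056. ATF6, the stress sensor cleaved in the Golgi, had 7.29, 6.001 and 6.70 in the CtBP1-labelled clones, 6.74 and 6.75 in the CtBP2 knockdown clones, and 7.05 and 6.92 in the scramble clones. The CtBP1-labelled clones spanned the other groups, whereas both CtBP2 clones lay below both controls, at -0.24 ± 0.39 (SE, limma, adjusted p = 0.793).

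XBP1, the factor that drives chaperone and degradation genes once its mRNA is spliced, had signals of 5.86, 5.99 and 6.08 in the CtBP1-labelled clones, 6.07 and 6.34 in the CtBP2 knockdown clones, and 6.63 and 6.31 in the scramble clones. All 3 CtBP1-labelled arrays lay below both controls. The difference was -0.49 ± 0.16 (SE, limma, adjusted p = 0.734), while the CtBP2 arrays overlapped the controls at -0.26 ± 0.17 (adjusted p = 0.553). Without scramble array 1 these were -0.34 and -0.11. The signal does not separate spliced from unspliced XBP1 mRNA. CREB3L2, a membrane-bound relative of ATF6, read 6.47, 4.97 and 5.51 in the CtBP1-labelled clones, 3.82 and 4.58 in the CtBP2 knockdown clones, and 4.87 and 5.46 in the scramble clones. It varied more than any other of the 39 genes, with a range of 2.65 over the 7 arrays. The arrays labelled CtBP1 knockdown exceeded the CtBP2 knockdown arrays by 1.44 ± 0.48 (2.72-fold, adjusted p = 0.531), and CtBP2 knockdown differed from scramble by -0.96 ± 0.53 (adjusted p = 0.535).

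**Figure D2:**
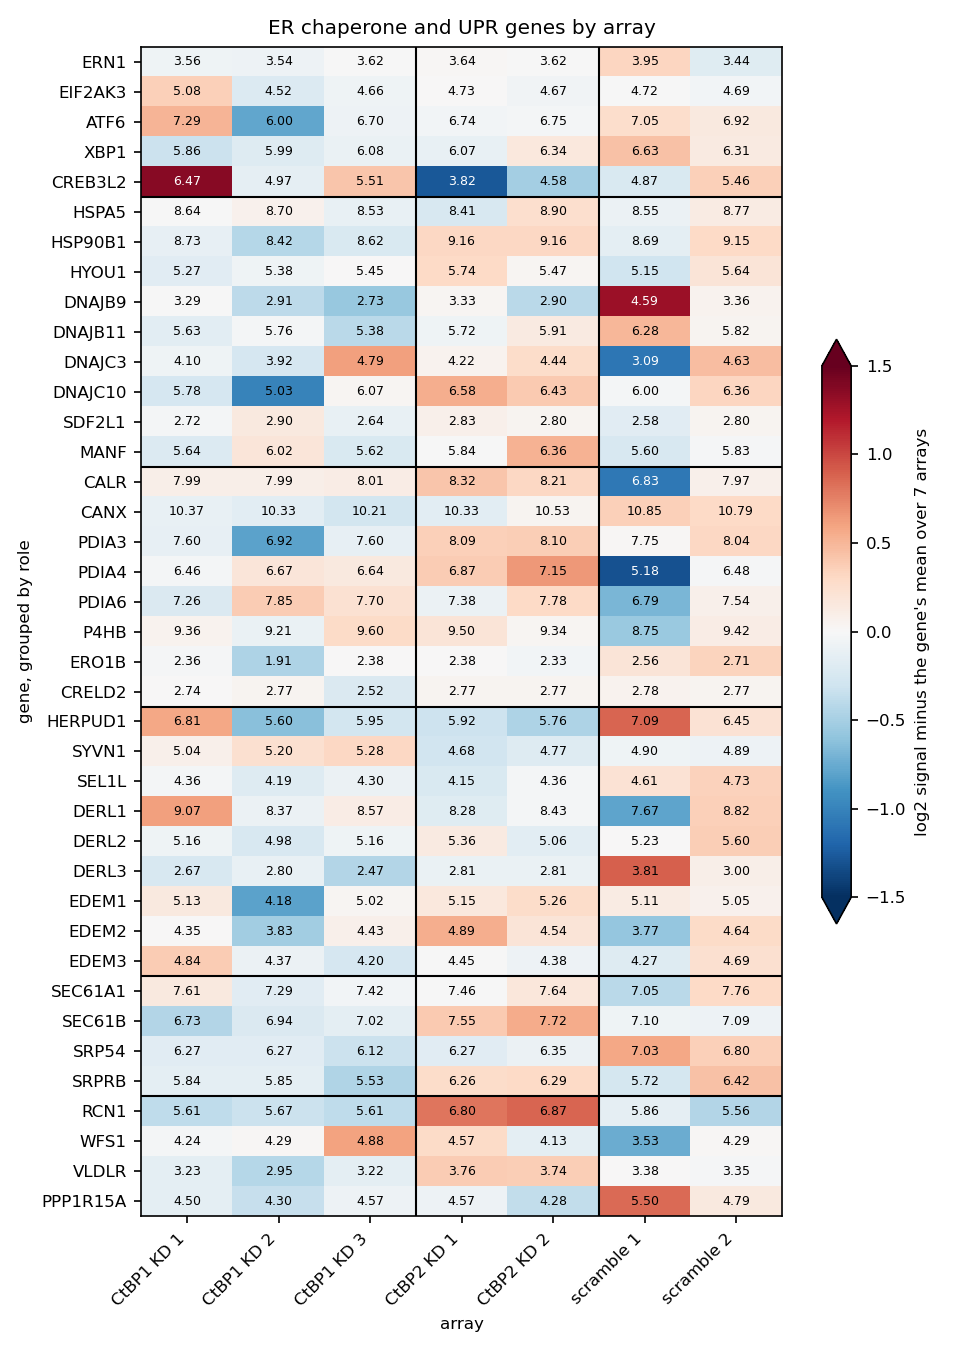
Log2 signal (printed in each cell) of the 39 genes on the 7 arrays, coloured by its deviation from the gene's mean over the arrays and grouped by role, with CtBP1-labelled, CtBP2 knockdown and scramble arrays from left to right. Scramble array 1 held the highest value for 10 of the 39 genes and the lowest for 12. Over all genes it held the highest for 31.5% and the lowest for 32.4%.

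Of the chaperones that bind unfolded chains, HSPA5 was close to level between the groups and HSP90B1 differed between the knockdowns by more than the spread within them, though neither passed the adjusted test. HSPA5 (BiP), the Hsp70 chaperone of the ER and the usual marker of ER stress, had signals of 8.64, 8.70 and 8.53 in the CtBP1-labelled clones, 8.41 and 8.90 in the CtBP2 knockdown clones, and 8.55 and 8.77 in the scramble clones. Its groups overlapped in all 3 comparisons, with differences of -0.035 ± 0.18, -0.0080 ± 0.19 and -0.027 ± 0.18 (SE, adjusted p = 0.958, 0.991 and 0.998). The direction of the HSPA5 differences was not stable, since 2 of the 3 turned positive under another fit or scaling and all 3 did when single arrays were left out. HSP90B1 (GRP94), the Hsp90 chaperone of the ER, had 8.73, 8.42 and 8.62 in the CtBP1-labelled clones, 9.16 and 9.16 in the CtBP2 knockdown clones, and 8.69 and 9.15 in the scramble clones. The CtBP1-labelled arrays lay below both CtBP2 arrays, with a difference of -0.58 ± 0.18 (adjusted p = 0.487), while scramble array 2, at 9.15, lay just below the CtBP2 arrays. Against scramble the HSP90B1 differences were -0.34 ± 0.18 for CtBP1 and 0.24 ± 0.19 for CtBP2 (adjusted p = 0.734 and 0.597). They were -0.56 and 0.013 against scramble array 2 alone, and -0.11 and 0.47 against scramble array 1 alone. With quantile normalisation again the CtBP2 difference was 0.0089.

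Among the cochaperones, DNAJC10, an ER reductase with a J domain, had signals of 5.78, 5.03 and 6.07 in the CtBP1-labelled clones, 6.58 and 6.43 in the CtBP2 knockdown clones, and 6.001 and 6.36 in the scramble clones. The CtBP1-labelled arrays were lower than the CtBP2 arrays by a difference of -0.88 ± 0.31 (1.84-fold lower, adjusted p = 0.566), and by -0.58 without CtBP1-labelled clone 2. MANF, a secreted ER stress protein, had 5.64, 6.02 and 5.62 in the CtBP1-labelled clones, 5.84 and 6.36 in the CtBP2 knockdown clones, and 5.60 and 5.83 in the scramble clones. CtBP2 knockdown exceeded scramble by 0.38 ± 0.24 for MANF (adjusted p = 0.546), and its scramble array 2 and CtBP2 clone 1 were nearly level. The MANF difference was 0.12 without CtBP2 clone 2, 0.65 without CtBP2 clone 1, and 0.15 with quantile normalisation again. DNAJB9, a J protein that restrains IRE1, read 3.29, 2.91 and 2.73 in the CtBP1-labelled clones, 3.33 and 2.90 in the CtBP2 knockdown clones, and 4.59 and 3.36 in the scramble clones. Every knockdown array lay below both controls for DNAJB9, and scramble array 1 was the farthest from the rest. DNAJB11, a J protein partner of HSPA5, lay between 5.38 and 6.28, and the CtBP1-labelled arrays were all below both controls. HYOU1, the exchange factor and Hsp110 relative that serves HSPA5, lay between 5.15 and 5.74, and the CtBP1-labelled arrays were all below the CtBP2 arrays. SDF2L1, which works with the ER J proteins, ran from 2.58 to 2.90, and the PERK inhibitor DNAJC3 ran from 3.09 to 4.79 with its lowest value on scramble array 1. Both overlapped in all comparisons. Of the 9 genes in this role, all 9 had a lower mean in the CtBP1-labelled clones than in the CtBP2 knockdown clones, and in 3 the groups did not overlap. Over all genes tested 46.8% had the lower mean in that order and 15.8% were lower without overlap, and among the 4990 genes of middle level 58.5% and 26.7%.

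The lectin chaperones CALR and CANX hold newly made glycoproteins in the folding cycle. CALR (calreticulin), the soluble one, had signals of 7.99, 7.99 and 8.01 in the CtBP1-labelled clones, 8.32 and 8.21 in the CtBP2 knockdown clones, and 6.83 and 7.97 in the scramble clones. Every knockdown array lay above both controls, by 0.60 ± 0.32 for CtBP1 (adjusted p = 0.734) and 0.86 ± 0.35 for CtBP2 (1.82-fold, adjusted p = 0.489). Against scramble array 2 alone the CALR differences were 0.023 and 0.29, and against scramble array 1 alone 1.17 and 1.44. CANX (calnexin), the membrane-bound one, had 10.37, 10.33 and 10.21 in the CtBP1-labelled clones, 10.33 and 10.53 in the CtBP2 knockdown clones, and 10.85 and 10.79 in the scramble clones. Both knockdowns lay below both controls here, at -0.51 ± 0.12 (adjusted p = 0.734) and -0.39 ± 0.13 (adjusted p = 0.438), and the 2 controls differed from each other by 0.06. These 2 comparisons share the scramble arrays.

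Among the disulfide enzymes, PDIA4, a disulfide isomerase, had signals of 6.46, 6.67 and 6.64 in the CtBP1-labelled clones, 6.87 and 7.15 in the CtBP2 knockdown clones, and 5.18 and 6.48 in the scramble clones. CtBP2 knockdown exceeded scramble by 1.18 ± 0.40 (2.27-fold, adjusted p = 0.438), which was 0.53 against scramble array 2 alone and 1.83 against scramble array 1 alone. PDIA3, the isomerase that works with CALR and CANX, had 7.60, 6.92 and 7.60 in the CtBP1-labelled clones, 8.09 and 8.10 in the CtBP2 knockdown clones, and 7.75 and 8.04 in the scramble clones. The CtBP1-labelled arrays lay below the CtBP2 arrays by a difference of -0.72 ± 0.24 (1.65-fold lower, adjusted p = 0.528). P4HB, the isomerase that is also a subunit of prolyl hydroxylase, lay between 8.75 and 9.60, and PDIA6, another isomerase, between 6.79 and 7.85. Both had their lowest value on scramble array 1 and overlapped in all comparisons. A second, dimmer probe cluster of P4HB read 8.47 and 8.42 in the CtBP2 knockdown clones, against 7.46 and 8.35 in the scramble clones. On that cluster both CtBP2 arrays lay above both controls. ERO1B, the oxidase that recharges the isomerases, read 2.36, 1.91 and 2.38 in the CtBP1-labelled clones, 2.38 and 2.33 in the CtBP2 knockdown clones, and 2.56 and 2.71 in the scramble clones, so that all 5 knockdown arrays lay below both controls. These signals were low on every array, and whether they lay above background was not tested. CRELD2, an ER stress-induced folding factor, varied least of the 39 genes, with a range of 0.26. On 4 arrays its deposited value was identical (2.77).

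ER-associated degradation returns misfolded proteins to the cytosol for the proteasome. SYVN1 (HRD1), the ubiquitin ligase of the main degradation complex, had signals of 5.04, 5.20 and 5.28 in the CtBP1-labelled clones, 4.68 and 4.77 in the CtBP2 knockdown clones, and 4.90 and 4.89 in the scramble clones. The CtBP1-labelled arrays lay above the controls (0.28 ± 0.12, adjusted p = 0.734) and the CtBP2 arrays lay below them, so that the CtBP1-labelled arrays exceeded the CtBP2 arrays by 0.45 ± 0.12 (adjusted p = 0.422). SEL1L, the partner that stabilises SYVN1, had 4.36, 4.19 and 4.30 in the CtBP1-labelled clones, 4.15 and 4.36 in the CtBP2 knockdown clones, and 4.61 and 4.73 in the scramble clones. Here both knockdowns lay below both controls, at -0.39 ± 0.12 (adjusted p = 0.734) and -0.41 ± 0.14 (adjusted p = 0.428). HERPUD1, the membrane scaffold of the same complex, had 6.81, 5.60 and 5.95 in the CtBP1-labelled clones, 5.92 and 5.76 in the CtBP2 knockdown clones, and 7.09 and 6.45 in the scramble clones. The CtBP2 arrays lay below both controls, with a difference of -0.93 ± 0.42 (1.91-fold lower, adjusted p = 0.51) that was -0.61 without scramble array 1, and the CtBP1-labelled arrays overlapped the controls through clone 1.

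DERL3, one of the derlin channel proteins, had signals of 2.67, 2.80 and 2.47 in the CtBP1-labelled clones, 2.81 and 2.81 in the CtBP2 knockdown clones, and 3.81 and 3.00 in the scramble clones. All 5 knockdown arrays lay below both controls, at -0.75 ± 0.25 for CtBP1 (adjusted p = 0.734) and -0.60 ± 0.27 for CtBP2 (adjusted p = 0.514), and scramble array 1 was again the farthest. Against scramble array 2 alone the DERL3 differences were -0.35 and -0.19. Except on scramble array 1, the DERL3 signals were low, at or below 3.00. Of the other derlins, DERL1 ran from 7.67, on scramble array 1, to 9.07 and overlapped in all comparisons, while DERL2 ran from 4.98 to 5.60 with the CtBP1-labelled arrays below both controls. The EDEM proteins trim or recognise mannose on misfolded glycoproteins. EDEM1 read 5.13, 4.18 and 5.02 in the CtBP1-labelled clones, 5.15 and 5.26 in the CtBP2 knockdown clones, and 5.11 and 5.05 in the scramble clones, with both CtBP2 arrays above all 5 others. A dimmer second probe cluster of EDEM1 did not repeat this order, with 2.26 and 2.27 on the CtBP2 arrays and 2.80 on scramble array 1. EDEM2 ran from 3.77 to 4.89 with the CtBP1-labelled arrays below the CtBP2 arrays. EDEM3 ran from 4.20 to 4.84 and overlapped in all comparisons.

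Targeting and translocation bring nascent chains to the ER. SEC61B, a small subunit of the translocation channel, had signals of 6.73, 6.94 and 7.02 in the CtBP1-labelled clones, 7.55 and 7.72 in the CtBP2 knockdown clones, and 7.10 and 7.09 in the scramble clones. The CtBP1-labelled arrays lay below the controls and the CtBP2 arrays above them. CtBP2 knockdown exceeded scramble by 0.54 ± 0.15 (1.46-fold, adjusted p = 0.374), and the arrays labelled CtBP1 knockdown lay below the CtBP2 arrays by a difference of -0.74 ± 0.13 (1.67-fold lower, adjusted p = 0.256). SRP54, the subunit of the signal recognition particle that binds signal sequences, had 6.27, 6.27 and 6.12 in the CtBP1-labelled clones, 6.27 and 6.35 in the CtBP2 knockdown clones, and 7.03 and 6.80 in the scramble clones. Both knockdowns lay below both controls, at -0.69 ± 0.13 (1.62-fold lower, adjusted p = 0.734) and -0.60 ± 0.14 (1.52-fold lower, adjusted p = 0.314). SRP54 had the smallest unadjusted p of the 39 genes in the CtBP1 comparison, and 3 of its knockdown arrays held an identical deposited value. The channel's main subunit gene, SEC61A1, ran from 7.05 to 7.76 and overlapped throughout, with both extremes in the scramble clones. SRPRB, a receptor subunit for the same particle, ran from 5.53 to 6.42, and the CtBP1-labelled arrays lay below the CtBP2 arrays. In this role all 4 genes had a lower mean in the CtBP1-labelled clones than in the CtBP2 knockdown clones, against 46.8% of all genes and 58.5% of the genes of middle level.

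RCN1 (reticulocalbin 1), a calcium-binding protein of the ER lumen, differed most in the CtBP2 arrays by unadjusted p. It read 5.61, 5.67 and 5.61 in the CtBP1-labelled clones, 6.80 and 6.87 in the CtBP2 knockdown clones, and 5.86 and 5.56 in the scramble clones. The CtBP2 arrays lay above all 5 others, by 1.13 ± 0.14 over scramble (2.18-fold, adjusted p = 0.18). The arrays labelled CtBP1 knockdown differed from the CtBP2 arrays by -1.20 ± 0.13 (2.30-fold lower, adjusted p = 0.129). Against scramble array 2 alone the CtBP2 difference for RCN1 was 1.28, and against scramble array 1 alone it was 0.97. Neither RCN1 test passed an adjusted p of 0.05, although these were the smallest of the 39 genes in both comparisons. The 2 CtBP1-labelled values of 5.61 were identical as deposited.

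VLDLR, the lipoprotein receptor that is induced through PERK in other settings, had signals of 3.23, 2.95 and 3.22 in the CtBP1-labelled clones, 3.76 and 3.74 in the CtBP2 knockdown clones, and 3.38 and 3.35 in the scramble clones. As with SEC61B, the CtBP1-labelled arrays lay below the controls and the CtBP2 arrays above them. The VLDLR differences were 0.39 ± 0.14 for CtBP2 over scramble (adjusted p = 0.459) and -0.62 ± 0.13 between the knockdowns (1.53-fold lower on the CtBP1-labelled arrays, adjusted p = 0.291). PPP1R15A (GADD34), the phosphatase subunit that reverses the PERK block on translation, had 4.50, 4.30 and 4.57 in the CtBP1-labelled clones, 4.57 and 4.28 in the CtBP2 knockdown clones, and 5.50 and 4.79 in the scramble clones. All 5 knockdown arrays lay below both controls for PPP1R15A, at -0.69 ± 0.23 (1.61-fold lower, adjusted p = 0.734) and -0.72 ± 0.26 (1.65-fold lower, adjusted p = 0.45). They were -0.33 and -0.37 against scramble array 2 alone. WFS1, an ER membrane protein whose loss causes Wolfram syndrome, ran from 3.53, on scramble array 1, to 4.88 and overlapped in all comparisons.

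**Figure D3:**
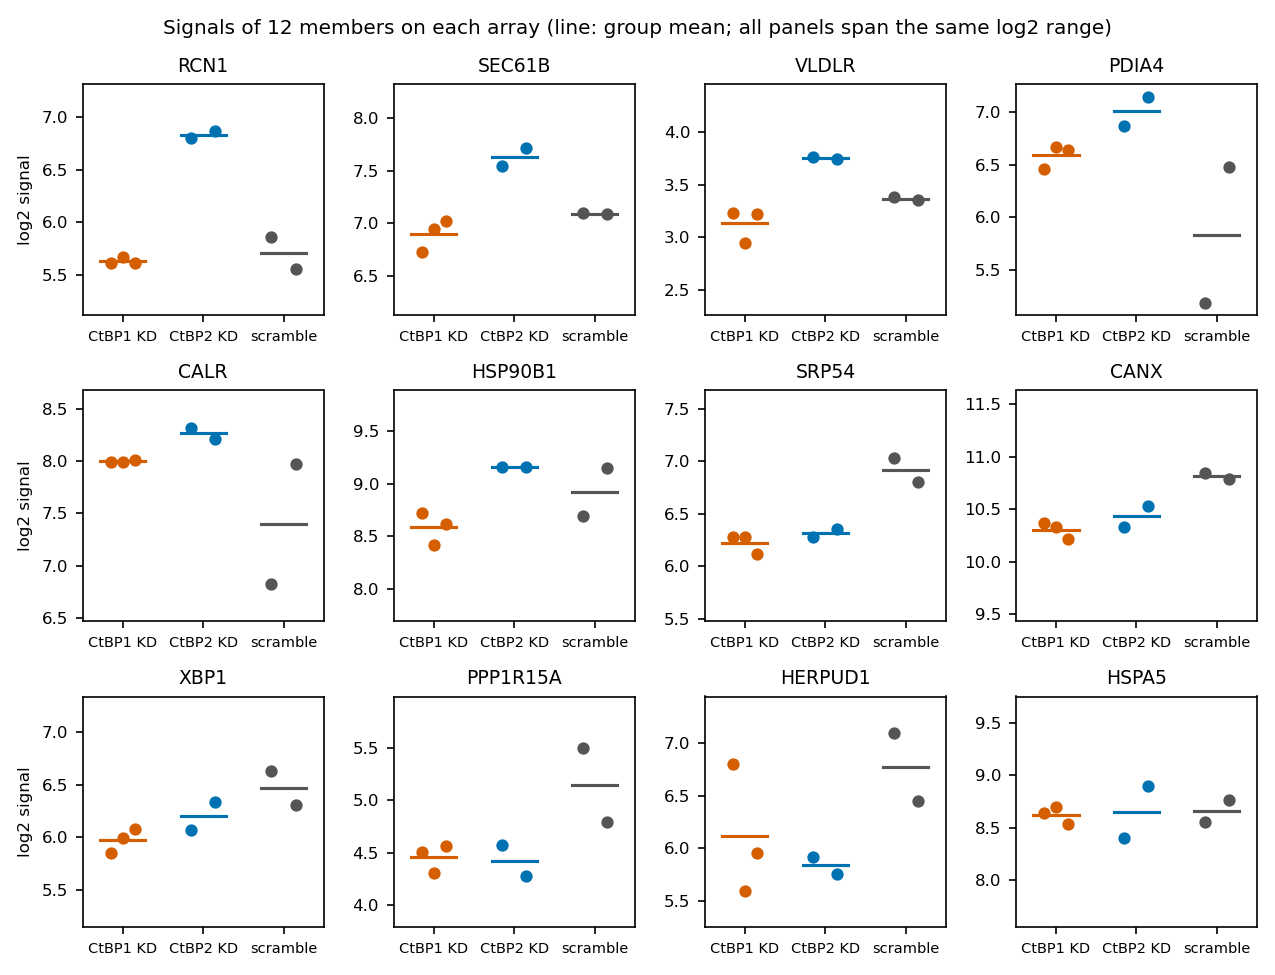
Log2 signal (vertical axis) on each array for 12 of the genes, with CtBP1-labelled, CtBP2 knockdown and scramble arrays from left to right, points for arrays and a line for the group mean. RCN1 read 6.80 and 6.87 in the CtBP2 knockdown clones and between 5.56 and 5.86 on the other 5 arrays.

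Set against scramble, the arrays labelled CtBP1 knockdown were more often below than above for these genes: 26 of the 39 means were lower and 13 higher. In 13 genes, or 33.3%, every CtBP1-labelled array lay below both controls, among them SRP54, CANX, XBP1, SEL1L, DERL3 and PPP1R15A, and in 2 genes, CALR and SYVN1, every one lay above. Over all genes tested, 7.59% were lower and 6.76% higher without overlap, and over the genes of middle level 4.93% were lower and 9.50% higher. No gene passed an adjusted p of 0.05 in limma (0% of the 17958, 0 of the 39). An unadjusted p under 0.05 was found for 7 of the 39 (17.9%), all lower, against 4.79% of all genes and 7.45% at middle level. The median difference of the 39 was -0.12 (range -1.00 to 0.76), against -0.0047 over all genes and 0.22 over the 4990 genes of middle level. Both scramble arrays enter each of these values, and the genes of middle level match only part of the 39 in level. Against scramble array 2 alone 30 genes were lower, with a median of -0.26, and against scramble array 1 alone 21 were lower, with a median of -0.11. Of the 39 genes, 19 were lower against each control taken alone and 7 were higher. By role, the number of genes lower without overlap was 1 of 5 sensors and factors, 2 of 9 chaperone machinery genes, 3 of 8 lectin and disulfide genes, 3 of 9 degradation genes, 2 of 4 translocation genes and 2 of 4 calcium and other genes.

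On the CtBP2 knockdown arrays the same genes were divided: 20 means were higher than scramble and 19 lower. RCN1, PDIA4, CALR, SEC61B, VLDLR and MANF were among the 10 genes, or 25.6%, in which both CtBP2 arrays lay above both controls. SRP54, SEL1L, CANX, PPP1R15A, HERPUD1 and CREB3L2 were among the 11 genes, or 28.2%, in which both lay below. The background was large here, with 19.3% of all genes higher and 21.7% lower without overlap, and 31.9% higher and 8.26% lower among the genes of middle level. None of the 39 passed an adjusted p of 0.05, against 1 gene (0.00557%) over the whole array. An unadjusted p under 0.05 was found for 9 of the 39 (23.1%), 5 higher and 4 lower. The shares were 10.2% of all genes and 15.9% of the genes of middle level. The median difference of the 39 was 0.11 (range -0.96 to 1.18), but it turned to -0.11 when the 7 arrays were quantile normalised again. It was -0.020 over all genes and 0.30 over the genes of middle level. Against scramble array 2 alone the median was -0.035, and against scramble array 1 alone it was 0.15. The 2 CtBP2 arrays had the highest correlation of any pair over all genes (0.993), and their median absolute difference over the 39 genes was 0.16.

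**Figure D4:**
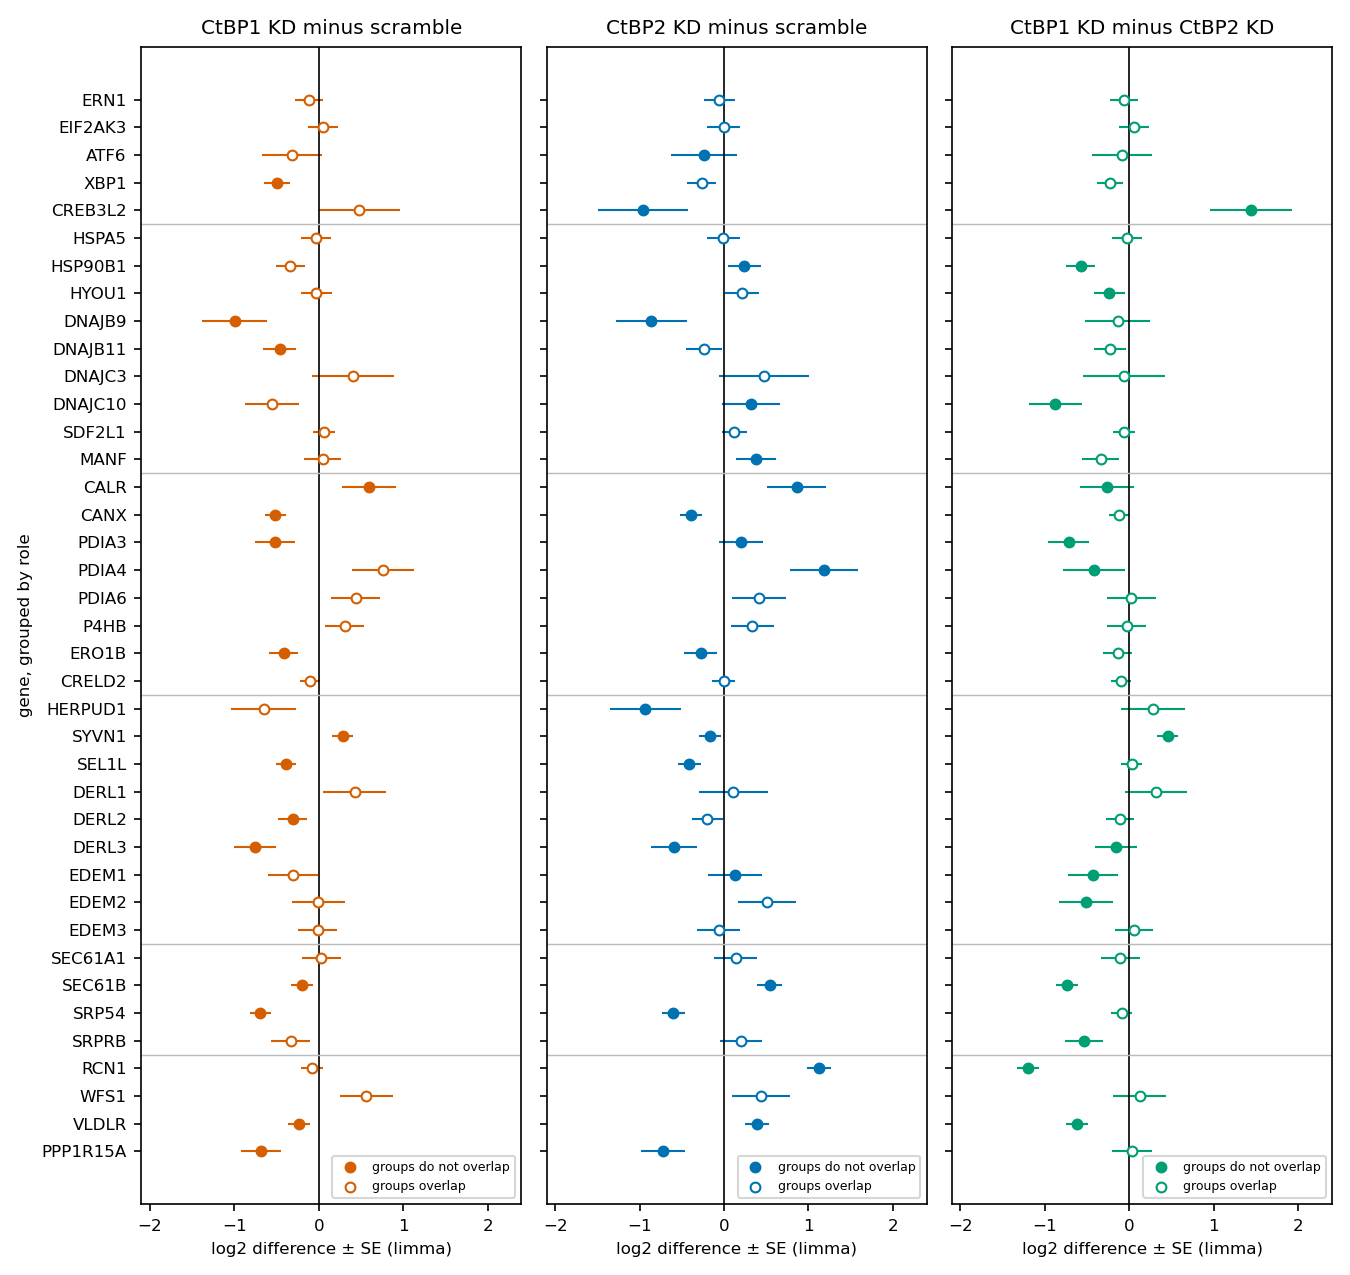
Log2 difference of each of the 39 genes (horizontal axes, SE as a bar) for CtBP1-labelled minus scramble, CtBP2 knockdown minus scramble, and CtBP1-labelled minus CtBP2 knockdown arrays, with filled points where the groups do not overlap. Differences ran from -1.00 to 0.76, from -0.96 to 1.18 and from -1.20 to 1.44, and none of the 39 passed an adjusted p of 0.05.

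The direct comparison of the knockdowns uses neither scramble array for its differences. Its SE and p-values still draw on the spread within all 3 groups, the scramble arrays included. The arrays labelled CtBP1 knockdown had the lower mean in 29 of the 39 genes and the higher in 10. In 13 genes, or 33.3%, the groups did not overlap and the CtBP1-labelled arrays were lower. These were RCN1, SEC61B, VLDLR, HSP90B1, PDIA3, DNAJC10, CALR, PDIA4, HYOU1, SRPRB, EDEM1, EDEM2 and DERL3. The opposite order held for SYVN1 and CREB3L2. Over all genes 15.8% were lower and 16.2% higher without overlap, and over the genes of middle level 26.7% were lower and 12.3% higher. No gene passed an adjusted p of 0.05 (0% of all genes, 0 of the 39). Of the 39, 8 genes (20.5%) had an unadjusted p under 0.05, 2 higher and 6 lower. The shares were 7.77% of all genes and 12.04% of the genes of middle level. The median difference was -0.11, against 0.015 over all genes and -0.082 over the genes of middle level, and it kept its sign in each alternative run. By role, the medians were -0.059 for sensors and factors, -0.23 for the chaperone machinery, -0.13 for lectin and disulfide genes, 0.026 for degradation genes, -0.32 for translocation genes and -0.29 for calcium and other genes. CtBP1-labelled array 2 held the lowest value of the 7 arrays in 10 of the 39 genes, among them ATF6, DNAJC10 and PDIA3. Over all genes it held the lowest value in 12.1%.

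The controls themselves differed for many of these genes. Scramble array 1 read lower than scramble array 2 for 22 of the 39 genes and higher for 17. Over all genes 51.2% read lower on scramble array 1, and over the genes of middle level 85.9%. Of the 39, 5 genes differed by over 1 between the 2 controls. Those 5 included PDIA4 and CALR, described above, and also DNAJC3, DERL1 and DNAJB9. DNAJC3 in the CtBP1-labelled clones differed by -0.37 from scramble array 2 and by 1.18 from scramble array 1, and DERL1 by -0.15 and 1.00. A difference for such a gene depends on which control is taken.

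**Figure D5:**
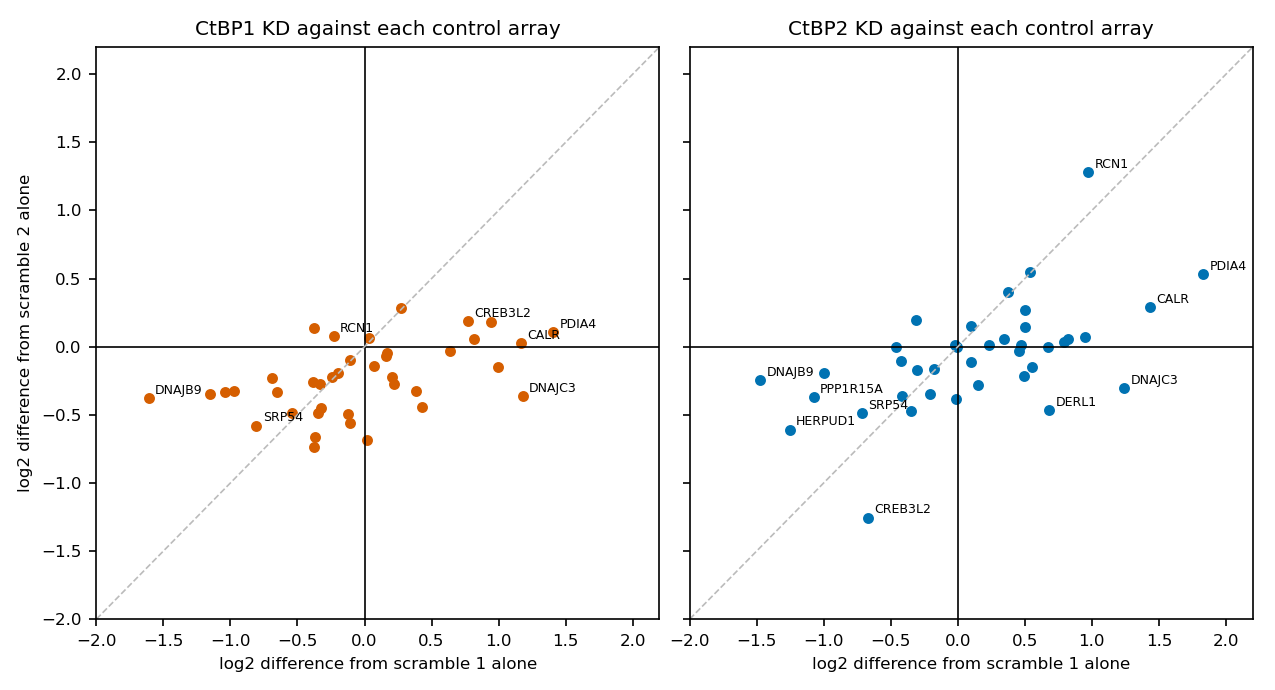
Log2 difference of each of the 39 genes against scramble array 1 alone (horizontal axis) and against scramble array 2 alone (vertical axis), for the CtBP1-labelled arrays (left) and the CtBP2 knockdown arrays (right). Points on the dashed diagonal have the same difference against both controls, whereas PDIA4 in CtBP2 knockdown lies at 1.83 on the horizontal and 0.53 on the vertical axis.

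The genes that carried ERSE, ERSE-II or the UPRE core were compared with those that did not. Against scramble, the 12 genes with a motif had a median difference of -0.22 in the CtBP1-labelled clones, and the 24 without one -0.097. On the CtBP2 knockdown arrays both medians were 0.059, and between the knockdowns they were -0.13 and -0.099. Among the 8 ERSE genes, CALR lay above scramble without overlap in both knockdowns, and CANX and ERO1B below in both. The ERO1B signals were low, at or below 2.71 on every array. XBP1 lay below scramble in the CtBP1-labelled clones and HSP90B1 above it in the CtBP2 knockdown clones, while HSPA5, PDIA6 and CRELD2 overlapped throughout.

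Other genes of the same pathways were taken from 4 lists of 31, 18, 26 and 25 measured genes, and none passed an adjusted p of 0.05 in any comparison. For other ER folding enzymes, 1, 3 and 3 of 31 had an unadjusted p under 0.05 in the comparisons of CtBP1 with scramble, CtBP2 with scramble, and CtBP1 with CtBP2. The shares over all genes tested were 4.79%, 10.2% and 7.77%, and over the genes of middle level 7.45%, 15.9% and 12.04%, so the shares of this list (3.23%, 9.68% and 9.68%) are near or below them. QSOX1, a secretory-pathway oxidase, read 6.72 and 6.17 in the CtBP2 knockdown clones, against 4.54 and 5.21 in the scramble clones (1.57 ± 0.28, adjusted p = 0.239). For other degradation factors the counts were 0, 3 and 5 of 18, or 0%, 16.7% and 27.8%. For other translocation and glycosylation genes they were 2, 3 and 5 of 26, or 7.69%, 11.5% and 19.2%. Of these 26 genes, 24 (92.3%, against 58.5% of the genes of middle level) had a lower mean in the CtBP1-labelled clones than in the CtBP2 knockdown clones, with a median of -0.32. For other regulators and genes of the PERK arm they were 3, 1 and 2 of 25, or 12%, 4% and 8%. DDIT3 (CHOP), the stress-induced factor of the PERK arm, read 4.55, 4.66 and 4.71 in the CtBP1-labelled clones, 4.66 and 4.76 in the CtBP2 knockdown clones, and 7.11 and 5.38 in the scramble clones. All 5 knockdown arrays lay below both controls for DDIT3, and scramble array 1 was the farthest from the rest (-1.61 ± 0.47 for CtBP1 and -1.54 ± 0.51 for CtBP2). Without scramble array 1 the DDIT3 differences were -0.74 and -0.67. DDIT4, from the same list, read 3.37, 3.48 and 3.84 in the CtBP1-labelled clones. It read 4.05 and 4.03 in the CtBP2 knockdown clones, and 4.37 and 4.39 in the scramble clones. All 5 knockdown arrays again lay below both controls, at -0.82 ± 0.16 for CtBP1 (adjusted p = 0.734). The DDIT4 difference for CtBP1 was -0.83 without scramble array 1.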

How the data were processed

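The authors deposited log2 signals of 7 arrays, which the submitters' processing notes attribute to Affymetrix Expression Console and RMA (background correction, quantile normalisation and median polish). Over the genes used here the deposited arrays did not share 1 distribution. The interquartile range was 2.20 on scramble array 1 and 2.85 to 3.15 on the others, and the reason was not tested. The genome build and the software versions are not given in the sources used here. RNA was extracted with a column kit per the sample labels and with TRIzol per the series text, and knockdown was checked by western blot per the labels. Of 33297 probe clusters, 19181 had 1 annotated symbol, 2055 several and 12061 were not listed in the annotation used here. A gene is its brightest cluster, which gave 17958 genes, 895 of them with several clusters (EDEM1 and P4HB among the 39). Group means were fitted with limma 3.58.1 in R 4.3.3 (default eBayes, 4 residual degrees of freedom, two-sided, Benjamini-Hochberg over all genes, threshold 0.05), after testing on simulated data. Precision is limited by how few arrays there are. The genes and lists were chosen with earlier results of these data known. Values on each array are given for up to 6 genes a direction and comparison with the smallest unadjusted p among those whose groups do not overlap, for HSPA5, HSP90B1, ERN1, EIF2AK3, ATF6 and XBP1, and for a few others chosen after their values were seen. Up to 3 genes a list were eligible among the other pathway genes, of which QSOX1, DDIT3 and DDIT4 are named. The fits were repeated under 17 alternatives of processing and array choice. Protein sequences were not analysed here.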

Additional observations from a re-analysis of the deposited data

How the results depend on the processing

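The fits were repeated with 17 alternatives, of which 7 left out 1 array each, and the alternative without genes of tied values was chosen after the data were seen. Among the deposited values, 7180 genes (40.0%), 11 of the 39 among them, had the same value on at least 2 arrays. The 11 were ERN1, SDF2L1, CANX, PDIA3, ERO1B, CRELD2, DERL2, DERL3, SRP54, RCN1 and WFS1. Leaving out single arrays gave 0 to 3262 genes past the threshold for CtBP1 against scramble and 0 to 3952 for CtBP2 against scramble, and 0 to 6 and 0 to 7 of the 39. The high counts came without scramble array 2, when scramble array 1 was the lone control and was assumed to vary like the other groups. The 6 were CALR, DERL3, DNAJB9, PDIA4, PPP1R15A and SRP54, and RCN1 was the seventh. The gene count for CtBP2 against scramble, 1 in the fit reported, was 0 with quantile normalisation again, robust eBayes, only the 2 groups, array weights or the replicate block. Array weights gave 272 genes and 3 of the 39 between the knockdowns: RCN1 (adjusted p = 0.0155), SEC61B (0.0423) and VLDLR (0.0469). The weights, estimated from these same arrays, were 2.662 for each CtBP2 array and 0.2723 for each scramble array. Being equal within a group of 2, they did not tell the 2 scramble arrays apart. The median of the 39 for CtBP1 against scramble was -0.23 with quantile normalisation again, -0.032 over the 28 genes without ties, and -0.26 to -0.096 without single arrays. For CtBP2 against scramble it was -0.11 with quantile normalisation again, -0.0044 with the mean of a gene's clusters, and -0.035 to 0.15 without single arrays. The cause of these shifts was not tested. With the replicate number as a block, the medians were -0.14, 0.11 and -0.10 and no gene passed in any comparison. Same-numbered arrays correlated at -0.35 to 0.10 in their deviations from the group mean. In a group of 2 arrays these deviations mirror each other, so the values cannot decide whether the numbers pair the arrays. For single genes, 1286 of 1330 repeated values kept their direction and side of the threshold, 25 newly passed (21 without scramble array 2 and 4 with array weights) and 19 changed sign. Many of these repeated values could not change direction. Robust eBayes, only the 2 groups, or leaving out an array of the third group gives the same difference. None of these single-gene results had passed in the fit reported, so a change of side could only be a new pass. The count of 1286 is therefore not a measure of stability. With quantile normalisation again, EIF2AK3 (CtBP1 against scramble) was -0.11, and between the knockdowns HSPA5 was 0.18 and ATF6 0.032. With the replicate block HSPA5 was 0.010 against scramble (CtBP1) and 0.018 between the knockdowns. Without single arrays, the CtBP1 differences from scramble ran from -0.14 to 0.073 for HSPA5, -0.37 to 0.14 for ERN1, -0.11 to 0.17 for EIF2AK3 and -0.63 to 0.013 for ATF6. Those of CtBP2 ran from -0.25 to 0.24 for HSPA5, -0.31 to 0.20 for ERN1 and -0.033 to 0.022 for EIF2AK3. Between the knockdowns they ran from -0.27 to 0.22 for HSPA5, -0.11 to 0.17 for EIF2AK3 and -0.39 to 0.25 for ATF6.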
